A study of Mus musculus with 7 samples.

Results

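Here 10 genes are described across endpoint tumors of a mouse glioma model: the immature neuron genes Dcx, Stmn1, Stmn2, Sox4, Sox11, Tubb3 and Cd24a, and the homeobox genes Dlx1, Dlx2 and Dlx5. They were taken by gene symbol from the deposited table of normalized counts, where all 10 were found among 19257 genes, and all 10 were among the 14782 genes tested. Newborn neurons on their way out of the germinal zones carry doublecortin (Dcx), stathmins, the neuronal beta tubulin Tubb3 and the SoxC factors Sox4 and Sox11 before they switch to the synaptic genes of mature neurons. Dlx factors are homeodomain proteins of the ventral forebrain, where they drive the fate and migration of GABAergic interneurons and olfactory bulb neurons, and the genes lie in pairs that share enhancers (Dlx1 with Dlx2, Dlx5 with Dlx6). Several of these genes are not restricted to neurons, since Dcx, Sox4, Sox11 and Stmn1 are also found in glial progenitors and glioma cells and Cd24a also in B lymphocytes.

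Bulk RNA-Seq was performed on 7 tumors, 1 library per brain. Of these, 3 were 3xCR tumors (replicates 2, 3 and 4), made by in utero electroporation of Cas9, a GFP reporter on piggyBac and CRISPR guides that cut tumor suppressors such as Trp53 and Nf1. The other 4 were GPC6 tumors (replicates 1 to 4), which received the same guides together with a construct for the glypican GPC6. Mice were on CD-1 and C57BL/6 backgrounds and of both sexes, without the sex, background or age being given per library, and no tumor-free brain was among the samples. The X-inactivation transcript Xist and the Y-linked Eif2s3y had the lowest and the highest log2 fold change of all genes tested (-5.21 and 4.31). Y-linked transcripts (Ddx3y, Eif2s3y, Kdm5d and Uty, 139 to 725 normalized counts) were present in GPC6 replicates 1 and 2, while the other 5 libraries held at most 0.548, so sex was not balanced between the groups and results are also given without these 2 tumors. Electroporation reaches the progenitors that line the lateral ventricle, and tumor tissue was taken under fluorescence guidance at endpoint and sequenced in bulk, so a library can mix tumor cells with host neurons, glia and immune cells. In such samples, fewer cells of a type and less RNA per cell cannot be told apart.

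Libraries held 7197692 to 18879762 reads on genes. The first principal component held 54.8% of the variance and had GPC6 replicate 1 at one end and 3xCR replicate 4 at the other, so results that rest on these libraries are also given without them. In the order of replicates, Gpc6 was at 217, 226 and 126 normalized counts in the 3xCR libraries and at 675, 263, 3434 and 5084 in the GPC6 libraries. Replicate 2 of the GPC6 group was thus close to the 3xCR tumors in this mouse gene. The species of the GPC6 sequence in the construct is not given in the sources used here, and reads of a sequence from another species need not be counted on mouse Gpc6. The labels call the tissue brain and the cells neural, and the neuronal marker Snap25 and the oligodendrocyte lineage marker Olig2 were present in every library, at 126 to 20138 and 1297 to 6658 normalized counts.

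Sox4 and Sox11 lay closest together of all pairs of the 10 genes across libraries, and Dlx2 had the same 2 highest libraries as its neighbour Dlx1, so the sequences just before the start sites of these genes are shown. Each is the 250 bases before the start of transcription in RefSeq on GRCm38.p6, 5′ to 3′ on the strand of the gene, with capitals for CACGTG (a palindromic E-box) and for CCAAT or its reverse complement ATTGG. Dlx2 lies on the minus strand at chr2:71546755-71547004, Sox11 on the minus strand at chr12:27342719-27342968 and Sox4 on the minus strand at chr13:28953700-28953949. 
Dlx2: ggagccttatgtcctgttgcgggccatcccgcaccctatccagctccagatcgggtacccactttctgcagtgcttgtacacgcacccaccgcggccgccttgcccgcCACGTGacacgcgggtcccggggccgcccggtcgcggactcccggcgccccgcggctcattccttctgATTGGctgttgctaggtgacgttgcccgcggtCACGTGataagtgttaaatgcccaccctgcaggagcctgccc
Sox11: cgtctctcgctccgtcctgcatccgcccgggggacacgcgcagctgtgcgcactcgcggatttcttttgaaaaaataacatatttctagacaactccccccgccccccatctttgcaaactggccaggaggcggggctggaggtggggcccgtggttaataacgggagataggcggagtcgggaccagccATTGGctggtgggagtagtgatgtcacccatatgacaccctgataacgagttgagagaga
Sox4: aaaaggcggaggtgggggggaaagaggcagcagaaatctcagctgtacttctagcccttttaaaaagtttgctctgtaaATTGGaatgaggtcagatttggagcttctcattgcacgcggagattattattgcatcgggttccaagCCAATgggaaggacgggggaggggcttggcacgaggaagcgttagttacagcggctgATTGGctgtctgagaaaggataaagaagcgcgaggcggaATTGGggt

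The Dlx2 window had a GC content of 66.4% with 24 CpG dinucleotides, against medians of 52.4% and 6 over all 32817 RefSeq windows of the same length. Its 2 matches to CACGTG belong to a motif that 6.02% of all windows hold on either strand. Sox11 had a GC content of 58.0% with 17 CpG dinucleotides and 1 CCAAT match, and Sox4 had 50.8% with 11 CpG dinucleotides and 4 CCAAT matches. A CCAAT match was found in 33.8% of all windows. The homeodomain core TAATTA, held by 4.85% of all windows, the SOX core AACAAAG, held by 5.03%, and TATAAA, held by 12.4%, had no match in these 3 windows or in those of Dlx1 and Tubb3. Dcx, with 2 overlapping windows, was the exception, with TAATTA and TATAAA in both and AACAAAG in one, as printed here for the latter (minus strand, chrX:143933125-143933374, capitals for these motifs).
Dcx: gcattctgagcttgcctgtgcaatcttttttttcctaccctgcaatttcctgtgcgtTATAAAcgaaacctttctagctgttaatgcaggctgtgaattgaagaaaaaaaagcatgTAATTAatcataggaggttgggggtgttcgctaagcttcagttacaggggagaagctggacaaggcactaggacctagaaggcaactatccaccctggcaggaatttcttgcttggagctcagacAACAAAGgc

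Of the 10 genes, 6 had an entry in the table of windows, and the motifs were chosen after the sequences were seen, so that the matches only describe these letters.

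On GRCm38 with GENCODE annotation, Dlx1 (chr2:71528113-71533981, plus strand) and Dlx2 (chr2:71543408-71546754, minus strand) lie side by side, and Dlx5 (chr6:6877805-6882085, minus strand) lies next to Dlx6 (chr6:6863334-6868568, plus strand). Dcx is X-linked (chrX:143855842-143933311, minus strand). The SoxC genes Sox4 (chr13:28948919-28953713) and Sox11 (chr12:27334264-27342574) are both on the minus strand. Stmn1 (chr4:134468320-134473843), Stmn2 (chr3:8509360-8561606), Tubb3 (chr8:123411424-123422015) and Cd24a (chr10:43578284-43584265) are on the plus strand. The table gives 1 value per gene and library, so exons and isoforms are not told apart.

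The groups were compared by limma, on the scale of log2(normalized count + 1), across all 14782 genes with a mean of at least 10 normalized counts. None of the 10 genes passed an adjusted p of 0.05 (Benjamini-Hochberg, limma), and 0 of all 14782 genes did (0%). At an unadjusted p under 0.05 limma called 689 genes (4.66%), with 991 by edgeR, 499 by limma voom and 1853 by DESeq2, and 0, 0 and 4 genes at an adjusted p under 0.05. Of the 10, Dlx5 alone had an unadjusted p under 0.05, and it alone had groups that did not overlap, with all GPC6 libraries above all 3xCR libraries. Such a gap in the same direction was found for 414 genes (2.8%) and in the opposite direction for 520 genes (3.52%). The log2 fold change (GPC6 minus 3xCR) was positive for 7 of the 10, with a median of 0.28 and a range of -0.49 to 3.06, against a median of -0.02 and 48.3% positive over all genes tested. Dlx1, Dlx2 and Dlx5, all positive, passed the filter through the GPC6 group alone. This fixed the direction of their group means and favoured a positive log2 fold change. Of the 7 other genes 4 were positive, with a median of 0.05 and a range of -0.49 to 0.54. Every fold change here is a difference between group means of log values with 1 count added, which understates the change of low genes and can depart from the ratio of the group means printed beside it. With a weight per library, limma called 1962 of the 14782 genes at an adjusted p under 0.05, Dlx1 and Dlx5 among them. Replicates were separate brains, the two-sided exact permutation p of the 10 genes ran from 0.0571 to 0.943, and with 3 against 4 it cannot go below 0.0286.

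**Figure D1:**
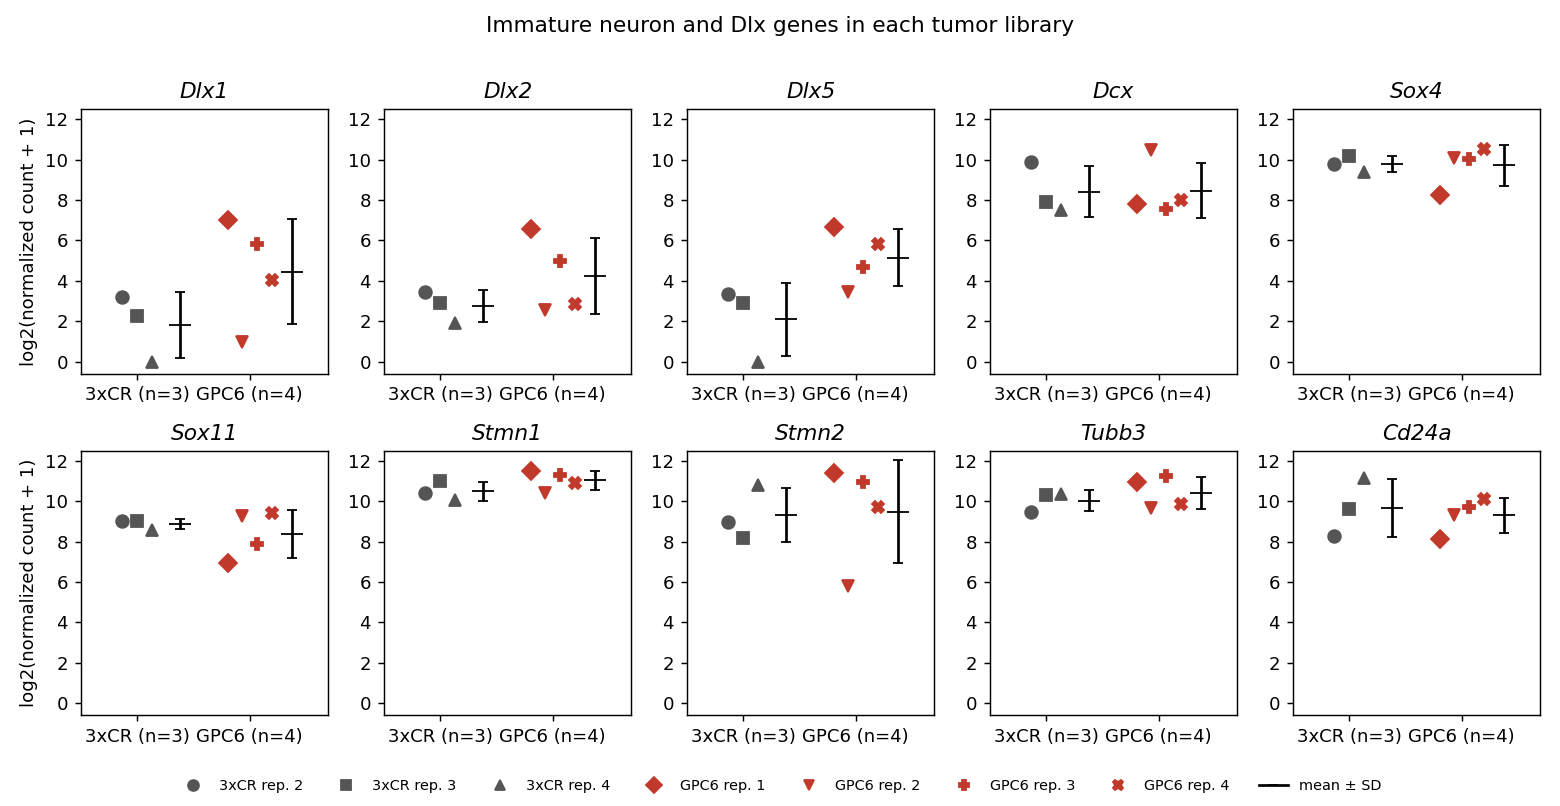
Level of each of the 10 genes, as log2(normalized count + 1) on the y axis, in 3xCR (grey, n = 3) and GPC6 (red, n = 4) tumor libraries, with the mean ± SD of each group in black. The Dlx genes are the lowest and Dlx5 is the only gene whose groups do not overlap, by a margin of 9.32 against 9.88 normalized counts.

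The Dlx genes were near the limit of detection in 3xCR tumors and ranged widely among GPC6 tumors. In 3xCR replicates 2 to 4 Dlx1 was at 8.22, 3.72 and 0 normalized counts, and in GPC6 replicates 1 to 4 it was at 127, 0.988, 55.0 and 15.4, or 15, 4 and 0 reads against 82, 1, 62 and 15. Its values overlapped, since GPC6 replicate 2 had a single read and lay below both 3xCR libraries with reads. Means were 3.98 ± 4.12 (SD, n = 3) and 49.5 ± 56.3 (SD, n = 4), and the log2 fold change was 2.64 (SE 1.48, 95% interval -0.79 to 6.07, adjusted p = 0.730 by limma). The 0 reads in 3xCR replicate 4 allow up to 3 reads, or 4.14 normalized counts, counting error only. 

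Dlx2, the neighbour of Dlx1, was at 9.87, 6.51 and 2.76 normalized counts in the 3xCR libraries and at 92.7, 4.94, 31.0 and 6.17 in the GPC6 libraries, in the same order of replicates. GPC6 replicates 1 and 3 stood above every 3xCR library, whereas replicates 2 and 4 lay within the 3xCR range. The log2 fold change was 1.49 (SE 1.06, 95% interval -0.96 to 3.94, adjusted p = 0.732 by limma), with means of 6.38 ± 3.55 (SD, n = 3) and 33.7 ± 41.1 (SD, n = 4).

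Dlx5 had 9.32, 6.51 and 0 normalized counts in the 3xCR libraries and 98.9, 9.88, 24.8 and 56.6 in the GPC6 libraries, with means of 5.28 ± 4.78 (SD, n = 3) and 47.6 ± 39.4 (SD, n = 4). Replicates 1, 3 and 4 of the GPC6 group stood apart from the 3xCR tumors, whereas replicate 2 was level with the highest of them. Between that library (10 reads, exact 95% Poisson interval 4.74 to 18.2 normalized counts) and 3xCR replicate 2 (17 reads, 5.43 to 14.9) the counting intervals overlapped, so the gap between the groups is within counting error. The log2 fold change was 3.06 (SE 1.07, 95% interval 0.59 to 5.54), with p = 0.0214 before and 0.730 after adjustment by limma, and the two-sided exact permutation test gave p = 0.0571. Without 3xCR replicate 4, GPC6 replicate 1 or GPC6 replicate 4, the unadjusted p of Dlx5 no longer fell under 0.05. Without GPC6 replicate 2, Dlx1 and Dlx5 (and Stmn1) had an unadjusted p under 0.05, and the log2 fold changes of Dlx1, Dlx2 and Dlx5 were 3.80, 2.04 and 3.64. Without both GPC6 replicate 1 and 3xCR replicate 4, they were 0.89, 0.30 and 1.52, and without GPC6 replicates 1 and 2, the tumors with Y-linked transcripts, they were 3.11, 1.17 and 3.18. The Dlx genes passed the filter on low values through the GPC6 group alone, since their 3xCR means were 3.98 to 6.38 normalized counts. Genes this low in 3xCR tumors could enter the test only through a higher mean in GPC6 tumors. The filter thus fixed the direction of their group means and favoured a positive log2 fold change, so their shared sign is no separate result.

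The other Dlx genes and their antisense RNAs that could be tested were likewise highest in GPC6 replicate 1. Dlx6, the partner of Dlx5, was at 10.4, 8.37 and 2.76 normalized counts in 3xCR and 109.7, 7.90, 18.6 and 70.0 in GPC6 tumors (log2 fold change 2.21, SE 0.96). Dlx6os1, a long noncoding RNA that overlaps Dlx6 on the opposite strand, was at 7.13, 7.44 and 0 in 3xCR and 75.7, 8.89, 37.3 and 52.5 in GPC6 tumors (log2 fold change 3.11, SE 1.02, adjusted p = 0.730 by limma, unadjusted p under 0.05). Its groups did not overlap, but by 8 reads in 3xCR replicate 3 against 9 in GPC6 replicate 2, which is within counting error. Dlx6, Dlx6os1 and Dlx1as also passed the filter through the GPC6 group alone. Dlx1as, antisense to Dlx1, was at 6.03, 5.58 and 0 in 3xCR and 38.6, 0, 24.0 and 9.26 in GPC6 tumors (log2 fold change 1.48, SE 1.42). Dlx3 and Dlx4, which act mainly outside the brain, stayed at or under 4.65 normalized counts in every library and were not tested. The kit was stranded, but the strand setting of the counting is not given in the sources used here, so reads of Dlx1 and Dlx1as, and of Dlx6 and Dlx6os1, may not be separable.

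The share of the Dlx5-Dlx6 pair ranged from 33.6% to 85.4% in the 3 GPC6 libraries with the most Dlx reads. Dlx5 and Dlx6 together held 48.7% of the reads of Dlx1, Dlx2, Dlx5 and Dlx6 in GPC6 replicate 1 (exact 95% binomial interval 42.7 to 54.8, 277 reads). In GPC6 replicate 3 they held 33.6% (26.0 to 41.8, 146 reads), and in GPC6 replicate 4 they held 85.4% (78.6 to 90.7, 144 reads). These intervals cover counting error within a library and give no test between tumors, and Dlx6 may include reads of Dlx6os1. In 3xCR replicates 2 and 3 the share was 52.2% (39.8 to 64.4, 69 reads) and 59.3% (38.8 to 77.6, 27 reads), and the other two libraries had 4 and 24 reads. This comparison was chosen after the values were seen.

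**Figure D2:**
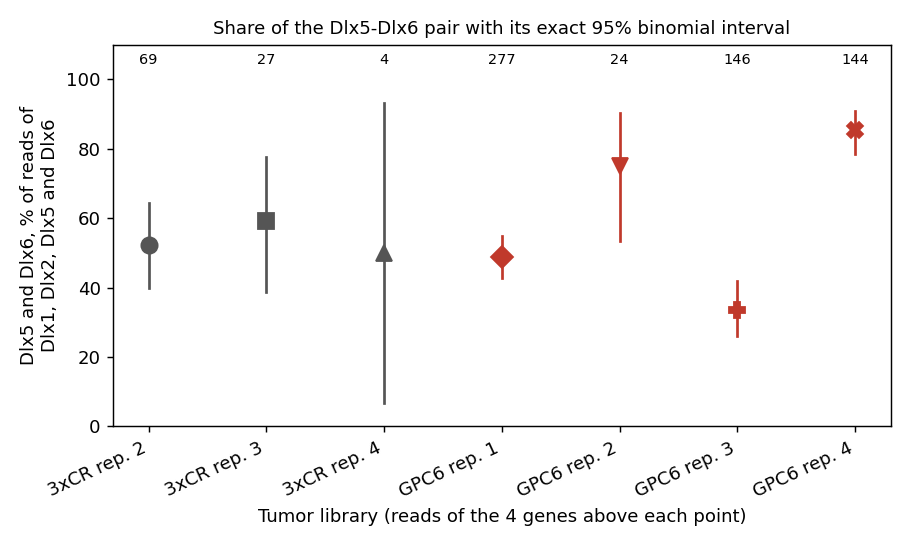
Share of the Dlx5-Dlx6 pair among the reads of Dlx1, Dlx2, Dlx5 and Dlx6 (y axis, %) in each tumor library (x axis), with exact 95% binomial intervals and the number of reads above each point, grey for 3xCR and red for GPC6. GPC6 replicate 3 (33.6%) and GPC6 replicate 4 (85.4%) have intervals that do not meet.

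Markers of mature and GABAergic neurons had the same highest and lowest libraries as the Dlx genes. A score per library was taken as the mean of log2(normalized count + 1) over a list, each gene centred on its mean over the 7 libraries. The score of Dlx1, Dlx2 and Dlx5 was -0.25, -0.91 and -2.95 in the 3xCR libraries and 3.14, -1.26, 1.58 and 0.65 in the GPC6 libraries. For 15 mature neuron markers it was -0.13, -0.98 and -2.91 in 3xCR and 3.15, -1.32, 2.04 and 0.16 in GPC6 tumors, so both scores had the same highest and second highest library, GPC6 replicates 1 and 3, and the same lowest, 3xCR replicate 4. The 4 genes of GABA synthesis and transport scored 0.02, -1.26 and -2.61 in 3xCR and 2.93, -0.05, 1.46 and -0.48 in GPC6 tumors. Glutamatergic lineage factors of the dorsal forebrain, 10 of 12 of which were tested, also scored highest in GPC6 replicate 1 (2.61), second in GPC6 replicate 3 (1.45) and low in 3xCR replicate 4 (-2.01) and GPC6 replicate 2 (-2.26). With the mature neuron score as a covariate, the log2 fold changes of Dlx1, Dlx2 and Dlx5 were -0.32, -0.45 and 1.40, against 2.64, 1.49 and 3.06 without it. The astrocyte list also scored highest in GPC6 replicate 1 (0.92) and lowest in 3xCR replicate 4 (-1.31). These libraries were the ends of the first principal component, so the shared extremes were not particular to neuron markers. The part of neuron content in the Dlx values was not otherwise tested.

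Gad1, the gene of a GABA-making enzyme, had the same 3 highest libraries and the same lowest as Dlx1, at 485, 196 and 91.2 normalized counts in the 3xCR and 4550.4, 403, 1811 and 726 in the GPC6 libraries. Of 12625 genes with a mean of at least 50 normalized counts, Cplx1, a complexin of the synapse, was nearest to the mean profile of Dlx1, Dlx2 and Dlx5, with a root mean square distance of 0.18 over the 7 libraries on the log2 scale, against a spread of 1.85 of the profile itself. Kcnt1, a potassium channel gene, was also among the nearest (0.22). This likeness is a description over 7 points.

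**Figure D3:**
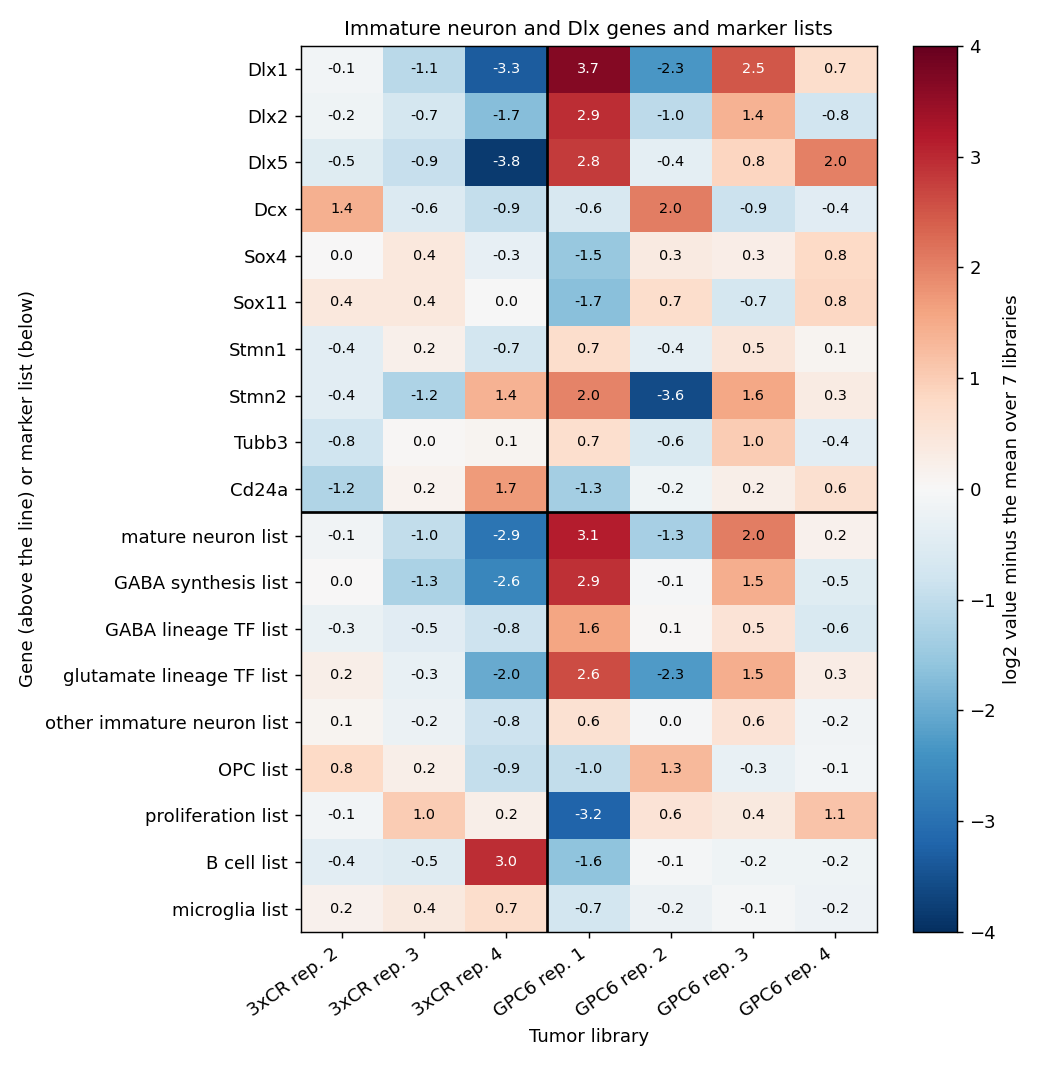
Centred log2 values (colour and numbers, log2 value minus the mean over 7 libraries) of the 10 genes above the horizontal line and of 9 marker lists below it, for 3xCR libraries left and GPC6 libraries right of the vertical line. Dlx1, Dlx2 and Dlx5 share the extremes of the mature neuron list, which runs from -2.91 in 3xCR replicate 4 to 3.15 in GPC6 replicate 1, whereas Dcx is high in 3xCR replicate 2 and GPC6 replicate 2.

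Dcx, the microtubule-binding protein of migrating neurons, was high in a single tumor of each group. Its level was 933, 236 and 179.6 normalized counts in the 3xCR libraries and 221, 1435, 189.8 and 254 in the GPC6 libraries. GPC6 replicate 2 and 3xCR replicate 2 were several times above the other 5 libraries, which lay between 179.6 and 254. Group means were 449.6 ± 419.5 (SD, n = 3) and 525 ± 607 (SD, n = 4), with a log2 fold change of 0.05 (SE 0.83, 95% interval -1.87 to 1.96, adjusted p = 0.989 by limma). Its sign turned without GPC6 replicate 2 (-0.63), and also without GPC6 replicates 1 and 2, the tumors with Y-linked transcripts (-0.63), while leaving out 3xCR replicate 2 gave 0.77.

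Dcx did not follow the mature neuron genes. Snap25, a presynaptic fusion protein, was at 1440.5, 681 and 126 normalized counts in the 3xCR and 20138, 708, 7469 and 2489.8 in the GPC6 libraries, with GPC6 replicate 2 near the low end. The 9 markers of oligodendrocyte precursor cells scored 0.81, 0.22 and -0.95 in 3xCR and -0.98, 1.30, -0.30 and -0.10 in GPC6 tumors, and their receptor gene Pdgfra was at 7730.1, 5657 and 2309 in 3xCR and 3136, 17225, 4681 and 3662 in GPC6 tumors. Dcx, the precursor score and Pdgfra thus had the same highest library, GPC6 replicate 2, and the same second highest, 3xCR replicate 2, although the remaining 5 libraries did not keep one order. The same held for Tuba1a, an immature neuron gene (69668 and 49984 normalized counts), so this order was not particular to precursor markers. Other immature neuron genes peaked elsewhere, such as Myt1l in GPC6 replicate 1. The 5 genes nearest to Dcx were S100a1, Bmp4, Fyn, Sulf2 and Pik3r3, at distances of 0.29 to 0.38 against a spread of 1.12 of Dcx itself. Fyn is a kinase and Sulf2 a heparan sulfate sulfatase, both known from the oligodendrocyte lineage, and Bmp4 is a secreted signal. Whether tumor cells, precursor cells or neurons carried the Dcx transcripts was not tested.

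The relatives of Dcx had other profiles. Dclk1, a kinase with doublecortin domains, was at 1573, 1522 and 838 normalized counts in 3xCR and 5867, 1562, 3762 and 2499 in GPC6 tumors (log2 fold change 1.27, SE 0.46, adjusted p = 0.730 by limma, unadjusted p under 0.05). GPC6 replicate 2 lay within the 3xCR range for Dclk1. Dclk3 was at 93.2, 45.6 and 4.14 in 3xCR and 660.0, 90.9, 344 and 61.7 in GPC6 tumors (log2 fold change 2.75, SE 1.16, adjusted p = 0.730 by limma, unadjusted p under 0.05), again highest in GPC6 replicates 1 and 3. Dclk2 was at 1480.5, 1252 and 898 in 3xCR and 1085, 1484, 1529 and 2424 in GPC6 tumors (log2 fold change 0.40, SE 0.31), with its highest value in GPC6 replicate 4.

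Sox4 and Sox11, the high mobility group factors that switch on early neuronal genes, were present in all tumors and low in GPC6 replicate 1. Sox4 was at 873, 1162 and 679.6 normalized counts in the 3xCR and 299.9, 1096, 1033 and 1484 in the GPC6 libraries. All but GPC6 replicate 1 lay between 679.6 and 1484, and the group means were 905 ± 243 (SD, n = 3) and 978 ± 494 (SD, n = 4), a ratio of 1.08. On the log scale, where the low library weighs more, the difference had the opposite sign, with a log2 fold change of -0.07 (SE 0.53, 95% interval -1.29 to 1.15, adjusted p = 0.976 by limma). Leaving out GPC6 replicate 1 gave 0.43, and leaving out both GPC6 replicates 1 and 2 gave 0.49.

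Sox11 was at 519, 519 and 384 normalized counts in the 3xCR and 121, 623, 237 and 691 in the GPC6 libraries. The 3xCR tumors kept within a narrow range, whereas GPC6 replicates 1 and 3 lay below and replicates 2 and 4 above all of them. Means were 474 ± 78.0 (SD, n = 3) and 418 ± 282 (SD, n = 4), with a log2 fold change of -0.49 (SE 0.60, 95% interval -1.88 to 0.89, adjusted p = 0.819 by limma). Leaving out GPC6 replicate 1 moved it to -0.006, and leaving out GPC6 replicate 2 or 4 to -0.79 or -0.84. Per Sox4 count there were 0.402 to 0.595 Sox11 counts in 6 of the libraries and 0.229 in GPC6 replicate 3. Sox12, the third SoxC gene, was at 643, 662 and 452 in 3xCR and 270.5, 701, 499 and 863 in GPC6 tumors (log2 fold change -0.11, SE 0.40) and was likewise lowest in GPC6 replicate 1. 

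Proliferation genes had the same low library as the SoxC genes. The score of 15 such genes was -0.12, 1.00 and 0.24 in the 3xCR and -3.21, 0.56, 0.39 and 1.13 in the GPC6 tumors, and Mki67, present in cycling cells, was at 949.9, 1876 and 983 in 3xCR and 129.8, 1586, 1357 and 1488 in GPC6 tumors. Among genes with a mean of at least 50 normalized counts, Lig1, a DNA ligase of replication, was nearest to Sox4 (0.09) and Brca1, a DNA repair gene, nearest to Sox11 (0.16), on the same distance and looked up after the values were seen. With the proliferation score as a covariate the log2 fold change of Sox4 was 0.27. The precursor cell (-0.98), microglia (-0.74), T cell (-1.21) and B cell (-1.61) scores were also lowest in GPC6 replicate 1. That library was an end of the first principal component, so the shared low was not particular to proliferation genes. A part of cycling cells in the SoxC levels was not otherwise tested.

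Stmn1 and Stmn2, both regulators of tubulin assembly, differed in how they were spread over the tumors. Stmn1, which is also abundant in dividing cells, was at 1345, 2066 and 1075 normalized counts in the 3xCR and 2921, 1375, 2482 and 1934 in the GPC6 libraries. Values overlapped, with GPC6 replicates 1 and 3 above and replicates 2 and 4 within the 3xCR range. The means were 1495 ± 513 (SD, n = 3) and 2178 ± 671 (SD, n = 4), and the log2 fold change of 0.54 (SE 0.33, 95% interval -0.23 to 1.31, adjusted p = 0.730 by limma) was positive under all 22 alternatives run. It was close to 0 with the mature neuron score as a covariate (0.019) and fell to 0.17 without both GPC6 replicate 1 and 3xCR replicate 4.

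Stmn2, a stathmin of neurons and growing axons, had the widest range of the 7 immature neuron genes, with 500.4, 287 and 1776 normalized counts in the 3xCR and 2691, 55.3, 1996 and 843 in the GPC6 libraries. Replicates 1 and 3 of the GPC6 group and replicate 4 of the 3xCR group were high, and GPC6 replicate 2, the tumor with the most Dcx, was by far the lowest. Group means were 854 ± 806 (SD, n = 3) and 1396 ± 1175 (SD, n = 4), a ratio of 1.63, while the difference of mean log values was a log2 fold change of 0.16 (SE 1.32, 95% interval -2.88 to 3.21, adjusted p = 0.978 by limma). It became -0.48 when GPC6 replicate 1 was left out, 1.38 when GPC6 replicate 2 was and 1.03 when both were.

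Stmn2 was out of proportion to the mature neuron gene Snap25 in 3xCR replicate 4. There were 14.1 Stmn2 counts per Snap25 count in that library, against 0.0781 to 0.421 in the other 6. That tumor held the fewest counts of the mature neuron list, which summed to 2486 normalized counts against 6345 to 129909 in the others. Snap25 was at 126, Syt1 at 66.3 and Camk2a at 56.6, so other genes of the list held most of that sum. The same tumor had no read of Dlx1 or Dlx5. Per Dcx count, Stmn2 ranged from 0.0386 in GPC6 replicate 2 to 12.2 in GPC6 replicate 1. On that ratio 3xCR replicate 4 (9.89) did not stand apart from GPC6 replicate 3 (10.5). These ratios were formed after the values were seen, and within each the gene lengths stay the same across libraries.

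The other stathmins shared the highest libraries of the mature neuron list. Stmn3 was at 1647, 826 and 506 normalized counts in 3xCR and 3875, 1369, 2639 and 1075 in GPC6 tumors (log2 fold change 1.16, SE 0.54), and Stmn4 at 774, 739.5 and 634 in 3xCR and 1924, 606, 1159 and 389 in GPC6 tumors (log2 fold change 0.26, SE 0.51). Both were highest in GPC6 replicates 1 and 3, and neither was high in 3xCR replicate 4. Stmn4 was lowest in GPC6 replicate 4, whereas the mature neuron list was lowest in 3xCR replicate 4.

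**Figure D4:**
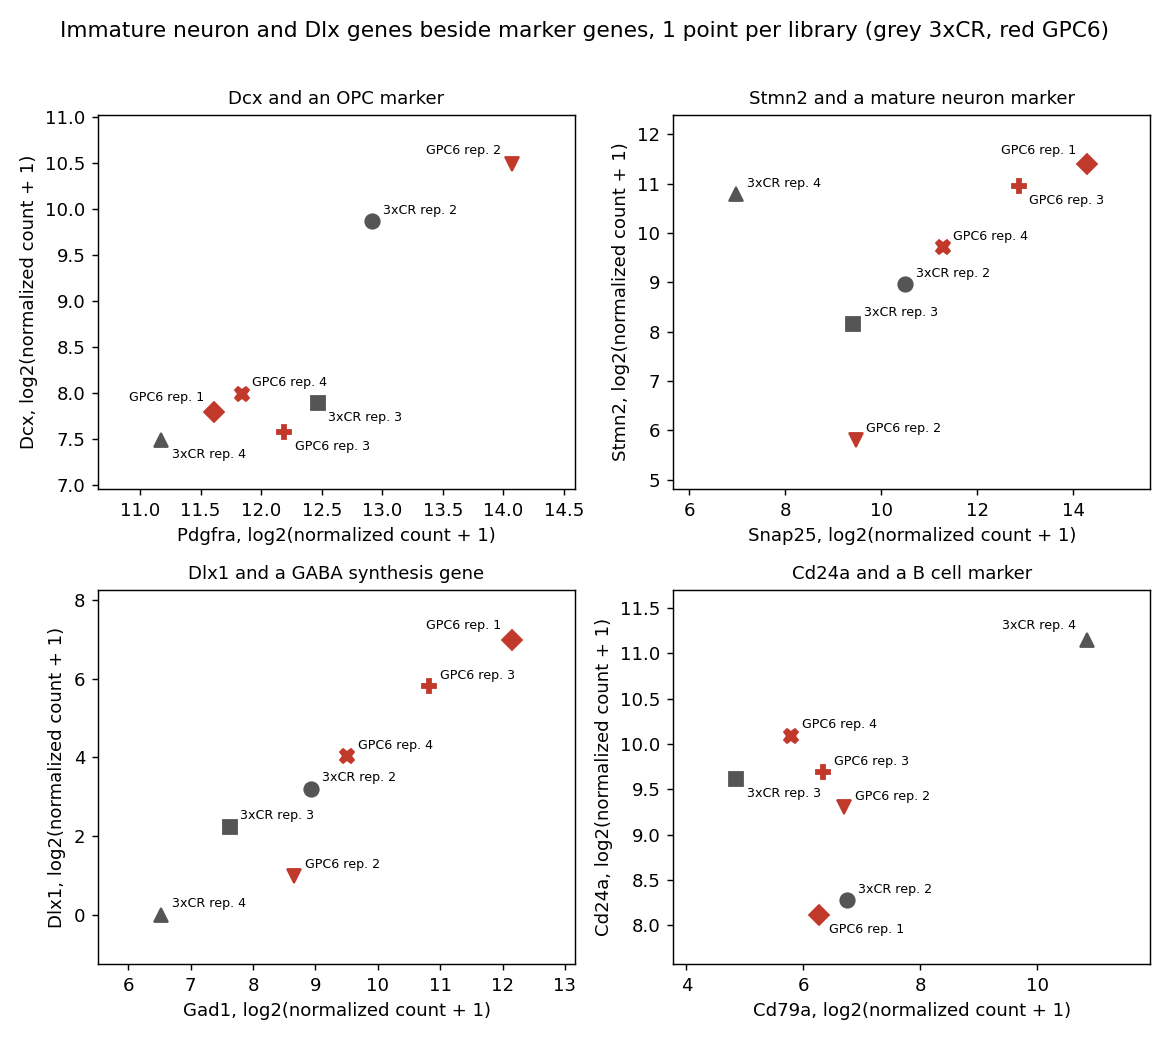
Dcx against Pdgfra, Stmn2 against Snap25, Dlx1 against Gad1 and Cd24a against Cd79a, each as log2(normalized count + 1), 1 point per library with 3xCR in grey and GPC6 in red. GPC6 replicate 2 and 3xCR replicate 2 have the most Dcx and Pdgfra, and 3xCR replicate 4 stands apart with 1776 Stmn2 counts beside 126 Snap25 counts and with the most Cd24a and Cd79a.

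Tubb3, the beta tubulin of neurons, was at 693, 1245 and 1316 normalized counts in the 3xCR and 1954, 796, 2445 and 914 in the GPC6 libraries. GPC6 replicates 1 and 3 were above every 3xCR tumor and replicates 2 and 4 were within their range. Means were 1085 ± 341 (SD, n = 3) and 1527 ± 803 (SD, n = 4), with a log2 fold change of 0.39 (SE 0.45, 95% interval -0.66 to 1.44, adjusted p = 0.814 by limma). Leaving out 3xCR replicate 2 gave 0.093 and leaving out GPC6 replicate 3 gave 0.11, against 0.65 without GPC6 replicate 2. With the mature neuron score as a covariate its value was -0.08. Of 7 beta tubulins tested, 3 had a positive log2 fold change, with a median of -0.03, and Tubb3 had the largest. The most abundant, Tubb5, had -0.31 (SE 0.46) and the smallest value was that of Tubb6, -1.36 (SE 0.82). Tubb3 overlaps the annotated gene Gm20388, and reads of the 2 may be shared.

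Cd24a, a surface sialoglycoprotein of immature neurons and of early B cells, was at 309, 782 and 2275 normalized counts in the 3xCR and 277, 629, 825 and 1092 in the GPC6 libraries. Replicate 4 of the 3xCR group was above every other library, and the lowest values, in 3xCR replicate 2 and GPC6 replicate 1, came from both groups. With means of 1122 ± 1026 (SD, n = 3) and 706 ± 343 (SD, n = 4), the log2 fold change was -0.38 (SE 0.70, 95% interval -2.01 to 1.25, adjusted p = 0.881 by limma). Its sign turned without 3xCR replicate 4 (0.36) and without GPC6 replicates 1 and 2 (0.21), while leaving out 3xCR replicate 2 gave -1.08.

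The same library had the most B cell transcripts. Cd79a, of the B cell receptor complex, was at 107, 27.9 and 1858 normalized counts in the 3xCR and 75.7, 103, 79.8 and 54.5 in the GPC6 libraries, and the summed counts of the 5 B cell markers were 3133 in 3xCR replicate 4 against 94.3 to 189.7 in the others. T cell markers, 6 of 7 of which were in the table, also summed highest there, to 1608 against 321 to 479.6. Microglia markers did so too, with 51933 against 15229 to 36031, so the peak was not particular to B cell transcripts. Counts of Cd24a per Cd79a count still varied from 1.22 to 28.0 between libraries, and in the 6 libraries with few B cell transcripts Cd24a ranged from 277 to 1092. The part of immune cells in the Cd24a level was not tested.

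**Figure D5:**
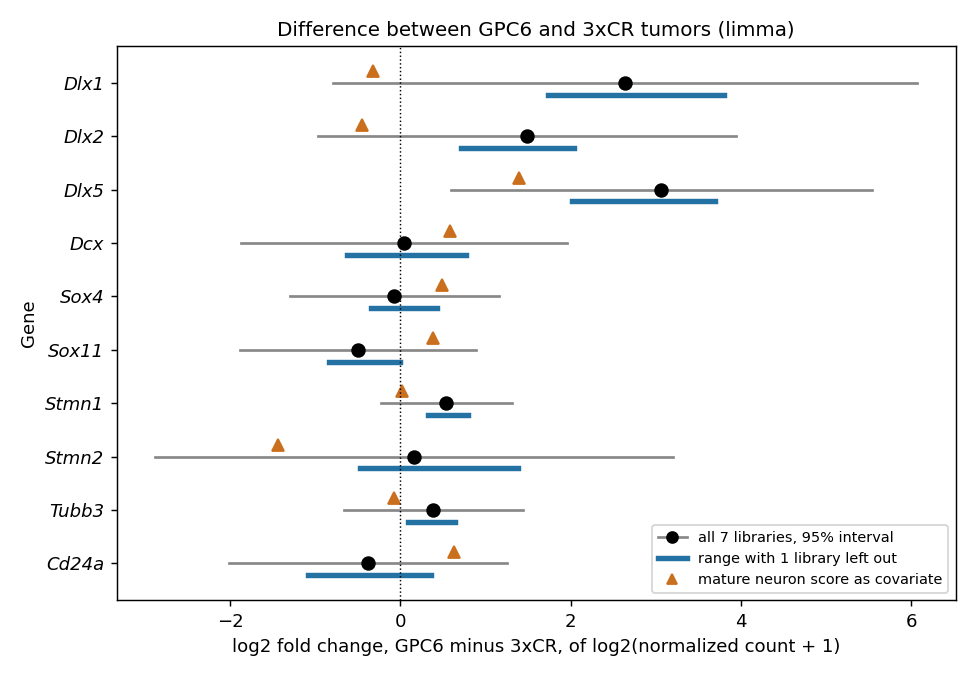
Log2 fold change (GPC6 minus 3xCR, limma) of the 10 genes with its 95% interval (black point, grey line), its range when any 1 library was left out (blue bar) and its value with the mature neuron score as a covariate (orange triangle). Dlx5 has the only interval above 0, from 0.59 to 5.54, which is not adjusted for the number of genes (adjusted p = 0.730, limma). Dlx1 and Dlx2 are below 0 with the covariate, at -0.32 and -0.45. Dlx1, Dlx2 and Dlx5 passed the filter through the GPC6 group alone.

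Further genes of the immature neuron programme were taken from a list of 30, of which 29 were tested. Positive log2 fold changes were found for 22 of them, with a median of 0.45, and 3 (Crmp1, Mllt11 and Dclk1, named for this) had an unadjusted limma p under 0.05, all higher in GPC6 tumors, and none an adjusted one. Of the 29, 1 (Insm1) passed the filter through the GPC6 group alone. Tuba1a, an alpha tubulin of young neurons and the most abundant of the list, had -0.32 (SE 0.54) and was highest in GPC6 replicate 2 like Dcx, with 49984, 36232 and 32189.9 normalized counts in 3xCR and 15501, 69668, 35125 and 24862 in GPC6 tumors. The largest value was that of Myt1l, a zinc finger factor that keeps neuronal identity (3.00, SE 1.30), at 224, 88.4 and 6.91 in 3xCR and 1884, 132, 767 and 181 in GPC6 tumors. The smallest was that of Igfbpl1 (-0.93, SE 0.64), at 138, 96.7 and 33.1 in 3xCR and 66.5, 35.6, 59.4 and 17.5 in GPC6 tumors. Myt1l had its highest and lowest values in the same libraries as Dlx1, whereas Tuba1a was lowest in the library where Dlx1 was highest. Of all genes tested, 48.3% were positive and 4.66% had an unadjusted limma p under 0.05. The counts of this and the following lists stand beside these shares. Genes of a list come from the same 7 libraries, so such counts are not separate observations of a group difference.

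Among 21 other transcription factors of the ventral forebrain GABAergic lineage, Dlx6 included, 18 were tested and 17 had a positive log2 fold change, with a median of 0.58 and none at an unadjusted limma p under 0.05. Of the 18, 3 (Dlx6, Isl1 and Sp9) passed the filter through the GPC6 group alone, which fixed the direction of their group means. The largest was that of Sp9, a zinc finger factor of the same lineage as the Dlx genes (2.84, SE 1.24), at 4.93, 1.86 and 0 normalized counts in 3xCR and 125, 4.94, 24.0 and 5.14 in GPC6 tumors. Its groups were separated by 4.93 against 4.94, which is within counting error. Etv1, the most abundant, had 0.43 (SE 0.50), and Nr2f2, a factor of caudal interneurons, had the smallest value, -0.22 (SE 0.84). All 4 genes of GABA synthesis and transport had positive values with a median of 2.71. The largest was that of Slc32a1, the vesicular transporter (2.85, SE 1.04). Slc32a1, Gad1 and Gad2 had an unadjusted limma p under 0.05, and none of the 4 an adjusted one.

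Glutamatergic lineage factors also had mostly positive values. Of 10 tested, 9 had a positive log2 fold change, with a median of 1.61 and none at an unadjusted limma p under 0.05. Of the 10, 3 (Emx1, Eomes and Neurod1) passed the filter through the GPC6 group alone, which fixed the direction of their group means. Emx1 of the dorsal cortex had the largest (2.33, SE 1.49) and Pax6 the smallest (-0.82, SE 1.00), while Tbr1, the most abundant, was at 61.9, 30.7 and 0 normalized counts in 3xCR and 617, 0, 269 and 48.4 in GPC6 tumors. Of 9 tested genes of guidance and migration toward the olfactory bulb, 7 had a positive value, with a median of 0.60, and 1 (Erbb4) had an unadjusted limma p under 0.05. Dab1 was the most abundant (0.52, SE 0.48), Slit1 had the largest value (1.39, SE 0.72) and Cxcr4 the smallest (-0.61, SE 0.54). All 15 mature neuron markers had positive values, with a median of 2.36 and 5 at an unadjusted limma p under 0.05, and Snap25 among them was highest in GPC6 replicate 1 and next in GPC6 replicate 3.

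Per kilobase of annotated exon, the order of the mean levels over the 7 libraries was Stmn1 (981 normalized counts per kb), Tubb3 (716), Cd24a (343), Stmn2 (208), Sox4 (197), Sox11 (53.2), Dcx (39.0), Dlx5 (13.01), Dlx2 (7.71) and Dlx1 (5.56). The lengths join all exons of a gene in GENCODE for GRCm38 and can exceed those of single transcripts. Of neighbours in this order, Sox4 and Sox11 alone kept their places in all 7 libraries, and every other pair of neighbours changed places in at least 1. The 3 Dlx genes were below the other 7 in every library but GPC6 replicates 1 and 4. In GPC6 replicate 1 Dlx5, Dlx2 and Dlx1 (43.7, 32.5 and 23.5 per kb) were above Dcx (17.5) and Sox11 (14.5), and in GPC6 replicate 4 Dlx5 was above Dcx (20.1).

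Of the 10 genes, GPC6 replicate 1 held the highest value of 5 and the lowest of 3, and 3xCR replicate 4 held the highest of 1 (Cd24a) and the lowest of 5. Sox4 and Sox11 were highest in GPC6 replicate 4, Tubb3 in GPC6 replicate 3 and Dcx in GPC6 replicate 2. No library held the highest value of both Dcx and a Dlx gene.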

How the data were processed

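RNA was sequenced from bulk tumor tissue with a stranded mRNA kit, 1 library per brain, in 3 3xCR and 4 GPC6 tumors. The sample titles gave each group and replicate number. Per the methods and the labels, the authors aligned reads to mm10 with STAR 2.5.0a, built a count matrix and normalized it with DESeq2 1.20.0. Division by that tool's size factors made the deposited values, a normalized signal (normalized count) uncorrected for gene length, and the counting rule is not given in the sources used here. Whole reads could be recovered, since 100% of values were whole reads to within 0.01. The table held 25 entries named as dates, with 0.254% to 0.361% of the reads, which were left out. A count of 0 allows 3 reads, or 1.64 to 4.64 normalized counts by library, and all counting intervals and floors cover counting error only. Symbols were matched to GENCODE annotation of GRCm38 (96.0% of genes).

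Groups were compared with limma 3.58.1 (R 4.3.3), on the scale of log2(normalized count + 1) and with a variance trend, over 14782 genes with a mean of at least 10, two-sided with Benjamini-Hochberg adjustment, and it was tested on simulated data. A two-sided exact permutation test over the 7 libraries was run for each of the 10 genes. Alternatives on the recovered reads were edgeR 4.0.16 (quasi-likelihood), DESeq2 1.42.0 and limma voom, and further ones were other pseudocounts, filters and scalings, library weights, 2 covariates, a replicate block and leaving out each library. Leaving out GPC6 replicate 1 and 3xCR replicate 4 together, and GPC6 replicates 1 and 2 together, was chosen after seeing the data. The 10 genes and all lists were chosen with earlier results of these data known. Named are the 10 genes, their families, Gpc6, per list the most abundant gene and both extremes of the log2 fold change, and genes among the 5 nearest to Dcx and to the mean of Dlx1, Dlx2 and Dlx5, and some genes that this rule would name are not reported here. Further names were chosen after their values were seen: Crmp1, Mllt11, Erbb4, Gad1, Gad2, Snap25, Syt1, Camk2a, Olig2, Pdgfra, Mki67, Cd79a, Lig1, Brca1, Insm1, Isl1, Eomes, Neurod1 and the sex-linked genes. No batch, litter or day is named for the libraries.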

Additional observations from a re-analysis of the deposited data

Results flagged for a closer look

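Dcx in GPC6 replicate 2, at 1435 normalized counts, lay far from the other GPC6 tumors, which held 189.8 to 254. The replicate of the other group with a similar level was 3xCR replicate 2, at 933. Dlx3 had 1.55 normalized counts in GPC6 replicate 1, a single read, and 0 in the other GPC6 libraries. The B cell list score of GPC6 replicate 1 was -1.61, against -0.18 to -0.07 in the other GPC6 tumors. Each of these stood outside the range that a test for a single outlying value in a group of 4 (Dixon) allows. For Dlx3 this was fixed in advance, since any gene with reads in a single library of the 4 is marked. Of 46 quantities examined in the GPC6 group 3 were marked in this way, and chance marks about 1 in 20, or 2.3.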

How the results depend on the processing

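Genes at an adjusted p under 0.05 numbered 0 with limma, 4 with DESeq2 and 1962 with library weights, and 0 in every other alternative. Unadjusted, the 689 became 1853 with DESeq2, 5105 with library weights, 266 with the mature neuron covariate, 195 without both GPC6 replicate 1 and 3xCR replicate 4, and 119 (without 3xCR replicate 4) to 1401 (without GPC6 replicate 2) when 1 library was left out. Of the 10 genes, 2 passed an adjusted p with library weights, where 1962 of all 14782 genes did, and 0 otherwise. These were Dlx1 (log2 fold change 3.12, adjusted p = 0.0377, limma) and Dlx5 (1.97, adjusted p = 0.0496, limma), which passed the filter through the GPC6 group alone. At an unadjusted p there were 1 with limma, 2 with edgeR, 3 with DESeq2 and 6 with library weights. Over all genes these methods called 689, 991, 1853 and 5105. There were 0 with voom, a filter at 50, the mature neuron covariate, the replicate block or both end libraries left out. The count was 2 without the 2 GPC6 tumors with Y-linked transcripts, and 0 to 3 with 1 library left out. A filter at a mean of 50 removed the Dlx genes and left 4 positive log2 fold changes in place of 7, and otherwise 6 to 8 were positive. Signs turned as follows. With the mature neuron covariate the values were -1.44 for Stmn2, 0.49 for Sox4, 0.39 for Sox11, -0.076 for Tubb3, 0.64 for Cd24a, -0.32 for Dlx1 and -0.45 for Dlx2. With the proliferation covariate they were -0.27 for Stmn2 and 0.27 for Sox4. Dcx was -0.049 with voom, -0.17 with library weights and -0.19 without both end libraries. Sox4 was 0.10 with edgeR, 0.12 with DESeq2 and 0.24 without both end libraries, and Cd24a was 0.027 with library weights and 0.75 without both. Leaving out 1 library gave -0.63 to 0.77 for Dcx, -0.48 to 1.38 for Stmn2, -0.34 to 0.43 for Sox4 and -1.08 to 0.36 for Cd24a. It gave 1.74 to 3.80 for Dlx1, 0.72 to 2.04 for Dlx2 and 2.02 to 3.70 for Dlx5, for which the filter favoured a positive value. Without both tumors with Y-linked transcripts, Dcx was -0.63, Sox4 0.49 and Cd24a 0.21. The causes were not tested. Replicate numbers did not pair the libraries (correlations of deviations -0.19, 0.12 and 0.30 for numbers 2, 3 and 4), and the fit with the number as a block called 675 genes at an unadjusted p and turned the sign of Stmn2 (-0.48), Sox4 (0.43) and Cd24a (0.015). Depth limits the Dlx values, with 4 to 69 reads over Dlx1, Dlx2, Dlx5 and Dlx6 in the 3xCR libraries.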

Other observations

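Draxin, a guidance gene of the immature neuron list named here after its values were seen, was at 65.8, 86.5 and 56.6 normalized counts in 3xCR replicates 2, 3 and 4 and at 38.6, 64.2, 846 and 899 in GPC6 replicates 1 to 4 (log2 fold change 1.60, SE 1.16, adjusted p = 0.733 by limma). Only GPC6 replicates 3 and 4 were high, the libraries that also held the most Gpc6.

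Among the cell type lists, all 8 microglia markers had negative log2 fold changes, with a median of -0.75 and 4 at an unadjusted limma p under 0.05. Over all genes tested, 4.66% had such a p and 48.3% were positive. All 8 choroid plexus markers were negative too (median -1.36). Their score was nevertheless highest in a GPC6 tumor, with 2.83, -2.10, -0.78 and -2.53 in GPC6 replicates 1 to 4. In 3xCR replicates 2 to 4 it was -0.55, 2.02 and 1.12. The 8 oligodendrocyte and 8 astrocyte markers had medians of -0.67 and 0.07, 7 ependymal markers -0.29 and 7 endothelial markers 0.38. Proliferation genes had 0 of 15 positive values, with a median of -0.61. Their score was -3.21 in GPC6 replicate 1 but 0.56, 0.39 and 1.13 in GPC6 replicates 2 to 4. In 3xCR replicates 2 to 4 it was -0.12, 1.00 and 0.24, so the negative values rest on a single library. The 9 precursor cell markers had a median of -0.03. Of the erythrocyte markers, 1 of 5 was in the table. None of these had an adjusted p under 0.05.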
